A study of Homo sapiens with 8 samples.

Results

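Interferon-stimulated genes encode proteins that restrict virus replication, and RNA sensors are the receptors that detect viral or mislocalised RNA inside the cell. The 9 genes described here are ISG15, IFIT1, IFIT2, IFIT3, IFIT5, MX1, IRF9, IRF1 and DDX58, chosen by name from the 78932 genes of the deposited tables. DDX58 is the older symbol of RIGI. Of the 9, 7 had enough counts to be tested, MX1 was too weak for the test across all genes, and IRF9 had no count in any library. With dTAGV1, scaled counts of 3′-end reads of IFIT2, IFIT3, IRF1, IFIT1 and IFIT5 were higher, those of ISG15 were lower, and DDX58 passed no threshold.

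The libraries came from HCT116, a human colorectal cancer line, in which NUDT21 carries a dTAG, a tag that lets a small molecule direct the protein to degradation. NUDT21 is the part of the cleavage factor Im complex that binds UGUA in nascent RNA near poly(A) sites. The 4 libraries of the first group came from dTAG-NUDT21 cells given DMSO, the solvent, and JTE-607. The 4 of the second group came from dTAG-NUDT21 cells given dTAGV1, the degrader, and JTE-607. JTE-607 inhibits CPSF73, the nuclease that cuts pre-mRNA at poly(A) sites, and both groups received it, so that dTAGV1 without JTE-607 was not measured. Doses, times and whether the line is 1 clone are not given in the sources used here. Nothing in the labels says that replicates are separate cultures, so p-values measure the spread between these libraries, which may be technical. Reads come from transcript 3′ ends, and the part of a change in the poly(A) site used in the counts was not tested.

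Libraries held 8649238 to 9977205 reads, of which 3447842 to 4291256 were counted to genes on their own strand. Counts of the tagged gene NUDT21 were 104 to 139 with DMSO and 15 to 43 with dTAGV1, a log2 fold change of -1.95. These are RNA counts, and the NUDT21 protein, on which the degrader acts, is not measured in these libraries. The epithelial markers EPCAM, CDH1, KRT8, KRT18, KRT19, CLDN7 and ELF3 were all detected, and summed to 1584 to 1833 CPM (counts for each 1000000 of the scaled library) with DMSO and 1405 to 1510 with dTAGV1. Within that list ELF3 and EPCAM were called higher with dTAGV1, from means of 45.7 and 273 CPM to 178 and 331 CPM. KRT18 and KRT19 were called lower, with log2 changes of -0.60 and -0.65 and no overlap of the groups in CPM. KRT8 and CDH1, at -0.38 and 0.02, were not called, and CLDN7 was not tested. The 7 leukocyte markers summed to 1.21 to 2.19 and 0.302 to 2.83 CPM, and the markers of plasmacytoid dendritic cells, the main interferon producers of blood, had 0 counts in all 8 libraries. The 5 fibroblast markers, with DCN and LUM at 0, summed to 15.9 to 20.8 and 11.2 to 15.9 CPM. Nearly all of this was COL1A1, with means of 17.3 and 13.8 CPM. The 3 endothelial markers summed to 1.64 to 2.93 and 0.295 to 0.850 CPM. The part of these in the results was not tested. In bulk RNA, fewer cells that express a gene and less RNA per cell cannot be told apart.

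In the textbook pathway, RIG-I (the product of DDX58) or a related sensor binds RNA, the adaptor MAVS relays the signal to IRF3, and interferon is made. Secreted interferon binds its receptor, and the signal leads to ISGF3, a complex that contains IRF9 and binds the interferon-stimulated response element (ISRE) of target promoters. IRF1 is a transcription factor that binds the same kind of element, and its own promoter holds a gamma-activated site (GAS).

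RefSeq promoter windows, from 250 bases before to 50 after a transcript start on GRCh38.p14, matched 8 of the 9 genes, all but IFIT2. They were searched on both strands for the ISRE core, which is TTTC, any 2 bases and TTTC again, and for the GAS core TTCNNNGAA, which reads the same on both strands. ISG15, IFIT1 and both starts of IFIT3 held 2 ISRE cores each, and IFIT5 held 3, the last of them across the transcript start. MX1 has 3 starts, of which start 1 and start 3 held 1 each and start 2 held 0. Of all 35116 windows, 3.57% held at least 1 ISRE core and 0.259% held 2 or more. IRF1, IRF9 and start 3 of MX1 held 1 GAS core each, against 7.66% of all windows, and DDX58 held neither motif. The 250 bases before the start are shown for 5 of the genes compared below, because ISG15 holds the same element as IFIT1, IFIT3 and IFIT5 yet differs from them in direction, and IRF1 holds the other element. Sequences are from RefSeq, 5′ to 3′ on the strand of the gene. Capitals mark ISRE cores in the first 4 and the GAS core in IRF1, and matches that overlap run together. In ISG15 the cores lie on the other strand and so read GAAA, 2 bases and GAAA here, and the IFIT5 core across the start runs past the printed bases and is not in capitals.
ISG15, chr1:1013247-1013496, plus strand: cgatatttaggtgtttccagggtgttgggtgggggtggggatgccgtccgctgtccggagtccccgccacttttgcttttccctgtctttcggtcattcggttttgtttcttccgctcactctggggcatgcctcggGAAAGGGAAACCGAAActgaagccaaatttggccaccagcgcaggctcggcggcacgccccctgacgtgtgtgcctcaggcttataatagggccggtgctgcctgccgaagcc
IFIT3, chr10:89327747-89327996, plus strand: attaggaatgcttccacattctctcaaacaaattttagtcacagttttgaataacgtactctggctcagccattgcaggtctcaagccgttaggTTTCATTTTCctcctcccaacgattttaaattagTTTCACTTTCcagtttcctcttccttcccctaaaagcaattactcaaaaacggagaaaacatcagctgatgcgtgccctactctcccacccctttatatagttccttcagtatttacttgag
IFIT1, chr10:89392373-89392622, plus strand: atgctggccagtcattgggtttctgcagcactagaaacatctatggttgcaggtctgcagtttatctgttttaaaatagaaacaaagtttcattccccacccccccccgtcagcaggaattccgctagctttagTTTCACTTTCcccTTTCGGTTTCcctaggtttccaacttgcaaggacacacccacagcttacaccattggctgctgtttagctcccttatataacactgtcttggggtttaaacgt
IFIT5, chr10:89414318-89414567, plus strand: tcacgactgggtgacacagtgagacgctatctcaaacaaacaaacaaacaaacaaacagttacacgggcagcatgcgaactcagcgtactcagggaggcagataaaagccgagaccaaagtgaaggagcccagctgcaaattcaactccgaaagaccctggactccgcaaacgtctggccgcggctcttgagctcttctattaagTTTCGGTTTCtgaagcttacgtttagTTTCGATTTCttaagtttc
IRF1, chr5:132490774-132491023, minus strand: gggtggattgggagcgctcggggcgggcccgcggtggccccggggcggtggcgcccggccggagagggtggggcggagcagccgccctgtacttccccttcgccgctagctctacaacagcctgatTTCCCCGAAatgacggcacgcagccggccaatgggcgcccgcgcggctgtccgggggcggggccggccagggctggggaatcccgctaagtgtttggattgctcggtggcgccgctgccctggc

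**Figure D1:**
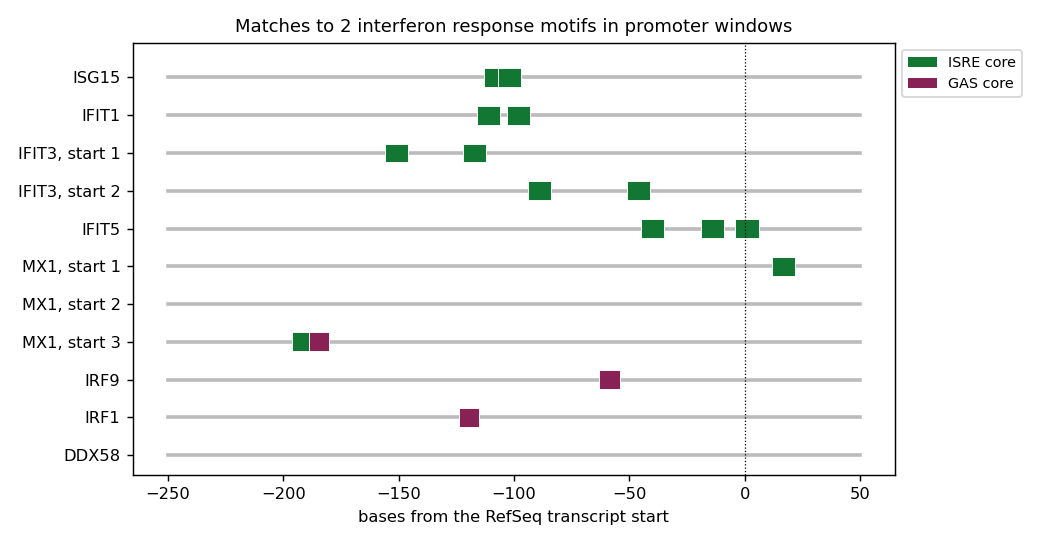
Matches to the ISRE core (green) and GAS core (purple) in the RefSeq promoter windows of 8 genes; the horizontal axis is the distance in bases from the transcript start and each grey line is 1 window. ISG15, IFIT1, IFIT3 and IFIT5 hold 2 or 3 ISRE cores, while IRF1 and IRF9 hold 1 GAS core each. Start 3 of MX1 holds a partly overlapping ISRE core and GAS core.

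Genes with an ISRE core went in both directions. Of 338 tested genes with at least 1 core in a promoter window, 112 were higher and 76 lower with dTAGV1, with a median log2 fold change of 0.08. Of the 8892 tested genes with a window and no core, 2530 were higher and 2701 lower, with a median of -0.02. The shares called were 55.6% and 58.8%.

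Of the 7 tested genes, 5 were called higher and 1 lower (quasi-likelihood test of edgeR, p under 0.05 after Benjamini-Hochberg adjustment over all 12618 tested genes). Across all tested genes, 57.9% were called, 29.4% higher and 28.5% lower. CPM of the groups did not overlap for 5 of the 7, against 50.9% of all tested genes. Calls were thus common throughout this comparison.

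**Figure D2:**
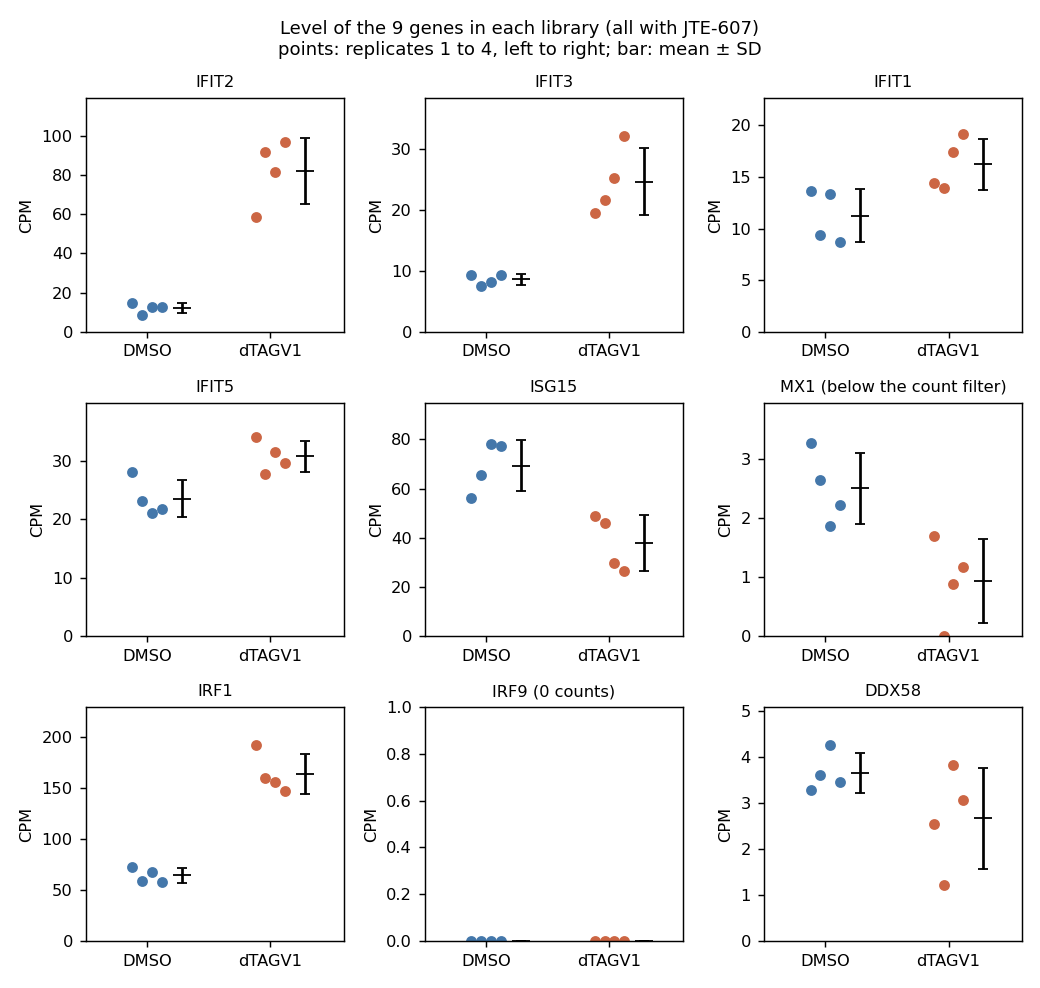
Level of the 9 genes in CPM (vertical axes, each from 0) in the 4 DMSO and 4 dTAGV1 libraries, all given JTE-607; points are libraries and bars are mean ± SD. IFIT2 lies at 8.68 to 14.8 CPM with DMSO and 58.4 to 96.7 with dTAGV1, while ISG15 lies at 56.3 to 78.2 and 26.5 to 49.0. All points of IRF9 are at 0.

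IFIT2 had the largest change of the 9 genes. It encodes a tetratricopeptide-repeat protein that partners with IFIT1 and IFIT3 and has been linked to cell death (ENSG00000119922; GRCh38 chromosome 10, 89283694 to 89309276, plus strand, protein-coding). In replicates 1 to 4, in that order here and for each gene below, the DMSO libraries held 54, 36, 47 and 52 counts of IFIT2 and the dTAGV1 libraries 206, 304, 276 and 409. Every dTAGV1 library was above every DMSO library, and dTAGV1 replicate 1 was the lowest of its group. The level rose from 12.2 ± 2.55 CPM with DMSO to 82.1 ± 17.0 with dTAGV1 (SD, n = 4 each). The change was 2.76 ± 0.17 on the log2 scale, or 6.76-fold (SE; edgeR, adjusted p = 4.33e-11 by Benjamini-Hochberg). In GENCODE 29, 8.68% of its exon bases lie in exons of AL353751.1 on the same strand. Whether reads there were counted to neither gene depends on the authors' annotation, which is not given in the sources used here.

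IFIT3 also rose, by less. Its product stabilises IFIT1 and improves its RNA binding (ENSG00000119917; chromosome 10, 89327894 to 89340971, plus strand, protein-coding). Counts were 34, 31, 31 and 38 with DMSO and 69, 72, 86 and 136 with dTAGV1, without overlap of the groups in CPM. The level went from 8.61 ± 0.910 to 24.7 ± 5.52 CPM (SD, n = 4 each). This was 1.53 ± 0.18 on the log2 scale (SE; edgeR, adjusted p = 9.08e-08 by Benjamini-Hochberg).

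IFIT1 and IFIT5 lie at the other end of the same cluster and rose by small amounts. IFIT1 binds viral RNA whose cap lacks methylation of the first nucleotide (ENSG00000185745; chromosome 10, 89392546 to 89406486, plus strand). Its counts were 50, 39, 50 and 35 with DMSO and 51, 46, 59 and 81 with dTAGV1. In CPM the groups were separate but close, since the highest DMSO library had 13.7 and the lowest dTAGV1 library 13.9. IFIT1 changed by 0.54 ± 0.19 on the log2 scale (SE; edgeR, adjusted p = 0.0153 by Benjamini-Hochberg). IFIT5 binds 5′-triphosphate RNA and acts without the other family members (ENSG00000152778; chromosome 10, 89414586 to 89421001, plus strand). Its counts were 103, 96, 79 and 88 with DMSO and 120, 92, 107 and 125 with dTAGV1. In CPM, DMSO replicate 1 of IFIT5 overlapped the dTAGV1 group, and the gene changed by 0.39 ± 0.13 on the log2 scale (SE; edgeR, adjusted p = 0.0145 by Benjamini-Hochberg).

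The calls of IFIT1 and IFIT5 each rested on single libraries. Without DMSO replicate 2, DMSO replicate 4 or dTAGV1 replicate 4, IFIT1 had log2 fold changes of 0.46, 0.43 and 0.43 (edgeR, Benjamini-Hochberg adjusted p = 0.0597, 0.0719 and 0.0741). Without DMSO replicate 3, DMSO replicate 4 or dTAGV1 replicate 1, IFIT5 had 0.33, 0.34 and 0.33 (edgeR, Benjamini-Hochberg adjusted p = 0.0554, 0.0512 and 0.05). Scaling by library size alone gave 0.31 for IFIT5 (edgeR, Benjamini-Hochberg adjusted p = 0.0501). IFIT2, IFIT3, IRF1 and ISG15 kept direction and call in every alternative in which they were tested.

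**Figure D3:**
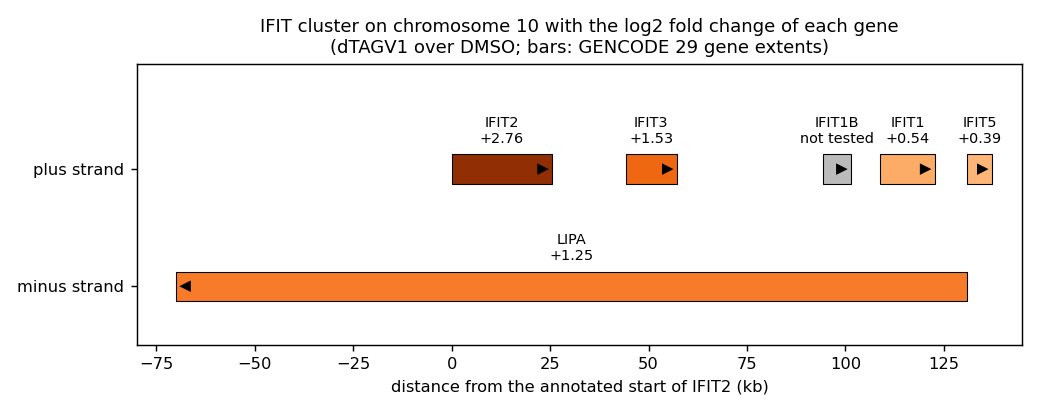
Map of the IFIT cluster, with distance from the annotated start of IFIT2 in kb on the horizontal axis, 1 row per strand, and the log2 fold change of dTAGV1 over DMSO above each gene; arrowheads show the direction of transcription and darker orange a larger increase. On the plus strand the change falls from 2.76 at IFIT2 to 1.53 at IFIT3, 0.54 at IFIT1 and 0.39 at IFIT5. LIPA, on the minus strand, had 1.25.

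The 4 IFIT genes are neighbours on the plus strand, and their changes differed in size. The ratio of 2 counts of the same library does not depend on how libraries are scaled, and these ratios were computed after the values above were seen. IFIT2 had 0.375 to 0.595 counts for each IFIT5 count with DMSO and 1.72 to 3.30 with dTAGV1. On the log2 scale this ratio was higher by 2.36 with dTAGV1 (exact permutation test, 2-sided p = 0.0286, adjusted over 6 pairs 0.0343), the smallest p that 4 against 4 libraries allow. IFIT2 relative to IFIT3 was higher by 1.25 on the log2 scale, IFIT3 relative to IFIT1 by 0.96 and IFIT3 relative to IFIT5 by 1.11 (exact permutation test, p = 0.0286 each). IFIT1 relative to IFIT5 did not pass the test, at 0.398 to 0.633 with DMSO and 0.425 to 0.648 with dTAGV1 (exact permutation test, p = 0.429). So IFIT2 changed more than IFIT3, and IFIT3 more than IFIT1 and IFIT5. Without any 1 dTAGV1 library the IFIT3 to IFIT1 ratio had an exact permutation p of 0.0571, and the IFIT3 to IFIT5 ratio did so without DMSO replicate 1 or 2. The ratios of the groups still did not overlap in those sets, and groups of unequal size can give 0.0571 without overlap.

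**Figure D4:**
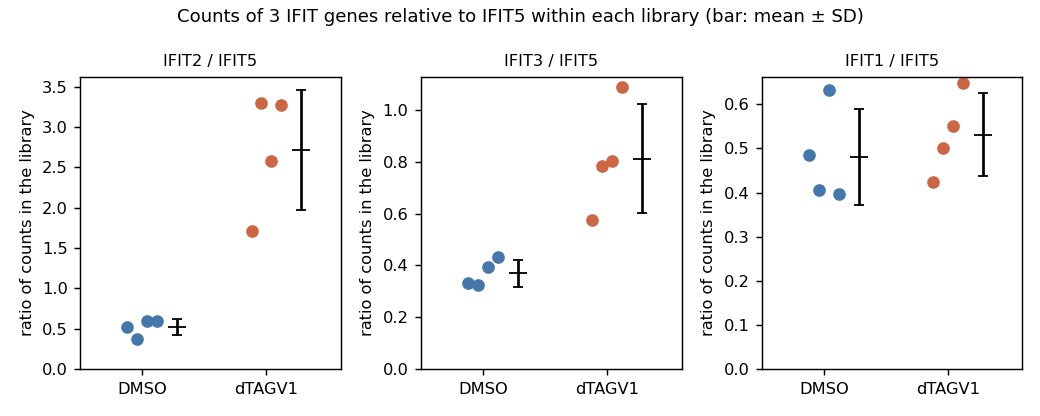
Counts of IFIT2, IFIT3 and IFIT1 divided by the count of IFIT5 in the same library (vertical axes, from 0) for 4 DMSO and 4 dTAGV1 libraries; points are libraries and bars are mean ± SD. The IFIT2 and IFIT3 ratios of the groups do not overlap, while the IFIT1 ratios do.

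LIPA, which encodes lysosomal acid lipase, lies on the minus strand across IFIT2, IFIT3 and IFIT1 in GENCODE 29. Its level was 29.8 ± 2.44 CPM with DMSO (SD, n = 4) and 70.6 ± 9.69 with the degrader, an increase of 1.25 on the log2 scale (edgeR, adjusted p = 1.04e-09 by Benjamini-Hochberg). Counts on the opposite strand of IFIT2, IFIT3, IFIT1 and IFIT5 were 0 to 5 in every library. IFIT1B, between IFIT3 and IFIT1, had 1 count in all 8 libraries together.

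ISG15 moved the other way. It encodes a ubiquitin-like protein that is attached to other proteins and is also secreted (ENSG00000187608; chromosome 1, 1001138 to 1014540, plus strand, protein-coding). Its counts were 206, 272, 293 and 313 with DMSO and 173, 152, 101 and 112 with dTAGV1, and each dTAGV1 library was below every DMSO library in CPM. ISG15 had 69.4 ± 10.4 CPM with DMSO and fell to 37.8 ± 11.3 with dTAGV1 (SD, n = 4 each). This was -0.89 ± 0.18 on the log2 scale (SE; edgeR, adjusted p = 0.000964 by Benjamini-Hochberg). Within the dTAGV1 group, replicate 4 had the lowest ISG15 and the highest IFIT1, IFIT2 and IFIT3 level, and replicate 1 had the highest ISG15 and the lowest IFIT2 and IFIT3 level. Other raised genes did not follow: IRF1 and IFIT5 were highest in replicate 1, at 192 and 34.0 CPM, and IRF1 was lowest in replicate 4, at 147 CPM. Reads given to no gene were 62.8%, 62.8%, 59.0% and 56.7% in dTAGV1 replicates 1 to 4, and their part in this order was not tested.

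Genes beside ISG15 on the other strand were lower too. HES4, a transcriptional repressor gene, had a log2 fold change of -1.41, and the noncoding AL645608.7 (ENSG00000272512) had -1.11 (edgeR, Benjamini-Hochberg adjusted p = 4.08e-05 and 7.02e-10). They lie 966 and 3087 bases upstream of the GENCODE 29 extent of ISG15, which begins at 1001138. The RefSeq promoter window printed above, at 1013247 to 1013546, is much farther from both, as HES4 ends at 1000172. ISG15 had 0 counts on its opposite strand in all 8 libraries. AGRN, downstream on the same strand, had 0 to 11 counts and was not tested.

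Among the enzymes that attach or remove ISG15, 2 of 5 tested were higher and 0 lower, a called share of 40% against 57.9% of all tested genes. HERC6 and HERC5, which belong to the ligase family that acts in ISG15 conjugation, had log2 fold changes of 0.75 and 0.45 (edgeR, Benjamini-Hochberg adjusted p = 0.00623 and 0.00608), although their groups overlapped in CPM. The conjugating enzyme gene UBE2L6 had 0.25, the ligase gene ARIH1 0.07 and the ISG15 protease gene USP18 0.24, none past the threshold. UBA7, the activating enzyme gene, had at most 4 counts and was not tested.

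IRF1 rose in every dTAGV1 library. Besides its role in interferon responses it drives antigen-presentation genes (ENSG00000125347; chromosome 5, 132481609 to 132490798, minus strand, protein-coding). Counts were 266, 244, 252 and 235 with DMSO and 679, 528, 529 and 620 with dTAGV1, and every dTAGV1 library was far above every DMSO library. In CPM these were 64.2 ± 7.00 and 163.6 ± 19.98 (SD, n = 4 each). This was 1.35 ± 0.10 on the log2 scale (SE; edgeR, adjusted p = 1.33e-11 by Benjamini-Hochberg). IRF1-AS1, which overlaps IRF1 on the plus strand, rose as well, with a log2 fold change of 0.86 (edgeR, Benjamini-Hochberg adjusted p = 0.000249). Opposite-strand counts of IRF1 were 5 to 11 with DMSO and 10 to 17 with dTAGV1, small beside its own counts.

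MX1 was weak. It encodes a dynamin-like GTPase that blocks influenza and other viruses (ENSG00000157601; chromosome 21, 41420304 to 41459214, plus strand, protein-coding). Its counts were 12, 11, 7 and 9 with DMSO and 6, 0, 3 and 5 with dTAGV1, and the filter on low counts removed it from the test across genes. In CPM the groups did not overlap, at 2.51 ± 0.607 and 0.942 ± 0.713 (SD, n = 4 each). The difference of -1.56 CPM had an exact permutation p of 0.0286, a test added after the values were seen. Groups of 4 that do not overlap always give this p. The exact permutation p was 0.0571 without DMSO replicate 1, 2 or 4 or without dTAGV1 replicate 2. In those sets the groups still did not overlap, and groups of unequal size can give 0.0571 without overlap. With counts irrespective of strand the exact permutation p was 0.0571 as well. Without the filter, MX1 had a log2 fold change of -1.37 (edgeR, Benjamini-Hochberg adjusted p = 0.0273), in a fit that called 13.8% of 29925 genes lower.

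DDX58 had few counts but was tested. The gene of the sensor RIG-I (ENSG00000107201; chromosome 9, 32455705 to 32526324, minus strand, protein-coding) had 12, 15, 16 and 14 counts with DMSO and 9, 4, 13 and 13 with dTAGV1, and the groups overlapped. Its log2 fold change was -0.44 with a 95% interval of -1.09 to 0.21 (edgeR, Benjamini-Hochberg adjusted p = 0.267).

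IRF9 had no counts. The gene (ENSG00000213928; chromosome 14, 24161053 to 24166565, plus strand, protein-coding) had 0 counts in all 8 libraries on either strand. In GENCODE 29, all 1838 exon bases of its principal transcript, the 444 of the last exon included, lie within exons of AL136295.5 on the same strand. AL136295.5 also had 0 counts in all 8 libraries, as had RNF31, the gene upstream that it overlaps. Over all annotated IRF9 transcripts, 48.4% of exon bases are shared in this way. STAR counts reads that fit 2 genes of a strand to neither. The annotation behind the deposited counts is not given in the sources used here, and it is not GENCODE 29. The part of this overlap in the 0 was not tested. The 0 is therefore not read as absence of IRF9 RNA, and no upper limit is given.

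Of the 97 other genes in the pathway lists, 62 were tested, 29 were higher and 10 lower with dTAGV1, a called share of 62.9% against 57.9% of all tested genes. Their median log2 fold change was 0.25, against 0.01 over all tested genes. The interferon ligand genes had few counts or none. IFNA1, IFNB1, IFNK, IFNG, IFNL1, IFNL2 and IFNL3 had 0 counts in all 8 libraries, which allows up to 0.710 to 0.906 CPM per library at 3 counts, for counting error only. IFNE had 5, 10, 6 and 17 counts with DMSO and 2, 0, 1 and 1 with dTAGV1, too few for the test across genes.

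Among receptor and signalling genes, 7 of 10 tested rose and 1 fell, so that 80% were called against 57.9% of all tested genes. IFNGR1, a chain of the interferon gamma receptor, went from a mean of 12.97 to 32.2 CPM, higher by 1.32 on the log2 scale. IFNAR1, a chain of the type I interferon receptor, rose from 53.6 ± 7.98 to 116 ± 2.66 CPM, with 1.11. IRF2, a relative of IRF1 that often opposes it, had a log2 fold change of 1.26, the kinase gene JAK1 0.68, TYK2 0.56 and JAK2 0.40. STAT2 had 0.33, a call that 7 alternatives did not keep, and JAK2 lost its call in 3. The other chain gene of the type I receptor, IFNAR2, was called lower at -0.76, but with counts irrespective of strand it had 0.05. Of its exon bases, 44.2% lie in exons of AP000295.1 on the same strand, so the value of IFNAR2 is uncertain.

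Among sensors and adaptors, 6 of 12 tested rose and 3 fell, or 75% called where all tested genes had 57.9%. TLR3, the endosomal receptor of double-stranded RNA, had 18, 27, 15 and 18 counts with DMSO and 103, 125, 123 and 166 with dTAGV1. It had 4.97 ± 1.09 CPM with DMSO and rose to 35.6 ± 4.45 CPM, or 2.83 ± 0.18 on the log2 scale (SE; edgeR, adjusted p = 1.68e-12 by Benjamini-Hochberg), close to that of IFIT2. IFIH1, the gene of the sensor MDA5 and a relative of DDX58, rose by 0.70, the antiviral zinc-finger gene ZC3HAV1 by 0.86, and the kinase genes IKBKE and TBK1 by 1.11 and 0.49 on the log2 scale. IRF3, the factor those kinases activate, had 34.7 ± 3.30 CPM with DMSO (SD, n = 4) and 19.1 ± 4.19 with the degrader, a change of -0.87 on the log2 scale. MAVS had -0.28, a call not kept with counts irrespective of strand (-0.14), and EIF2AK2, the gene of the RNA-activated kinase PKR, had -0.20, a call lost without DMSO replicate 3 or 4. DHX58, another gene of the RIG-I family, had 3 to 14 counts and a log2 fold change of -0.05, not called. CGAS, ZBP1, STING1, RNF135 and IRF7 had at most 7 counts in any library and were not tested.

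Of 25 further interferon-stimulated genes tested, 11 were higher and 5 lower, and these 64% called are near the 57.9% of all tested genes. IFITM3, a membrane protein gene that blocks virus entry, had 681 ± 113 CPM with DMSO (SD, n = 4) and 1876 ± 71.9 with the degrader, higher by 1.46 on the log2 scale, and IFITM2 had 0.76. These 2 genes are near-identical copies, so reads may be lost or shared between them. GBP2, a guanylate-binding protein gene, had 1 to 6 counts with DMSO and 23 to 27 with dTAGV1, and a log2 fold change of 2.54. It passed the filter on low counts only through its dTAGV1 libraries, so the size of its change is uncertain. APOL6 had 5 to 13 counts with DMSO and 25 to 42 with dTAGV1, and a log2 fold change of 1.93. It too needed its dTAGV1 libraries to pass the filter, and both genes are among the 11 higher. PARP14 and SP100 had 1.01 and 0.96, and ISG20, PARP9, LGALS3BP and NMI 0.87, 0.86, 0.59 and 0.35. IFI35 was called higher at 0.79, a call lost in 7 alternatives. OAS3, an oligoadenylate synthetase gene, had 67.0 ± 10.7 CPM with DMSO and fell to 21.6 ± 2.66, or -1.62 ± 0.13 on the log2 scale (SE; edgeR, adjusted p = 7.48e-11 by Benjamini-Hochberg). OASL was called lower at -0.62, a call lost in 8 alternatives, while SHFL, PNPT1 and PARP12 had -0.46, -0.43 and -0.37. The call of PARP12 was lost without DMSO replicate 3 or dTAGV1 replicate 3. BST2, PLSCR1, SAMD9, SP110 and DTX3L had log2 fold changes of 0.08, 0.02, -0.01, 0.04 and 0.04, none called. MX2 and RTP4 had 0 counts in all libraries, and RSAD2, CXCL10 and IFI44L had at most 2 in any.

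Of 11 tested negative regulators, 3 rose and 1 fell, which is 36.4% called against 57.9% of all tested genes. SOCS3, PIAS1 and IRF2BP2 had log2 fold changes of 0.70, 0.58 and 0.47, and RNF125, a ligase gene that targets RIG-I, had -0.52. NLRX1 had -0.38, SOCS1 0.25 and ADAR, which edits double-stranded RNA, -0.02, none past the threshold.

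**Figure D5:**
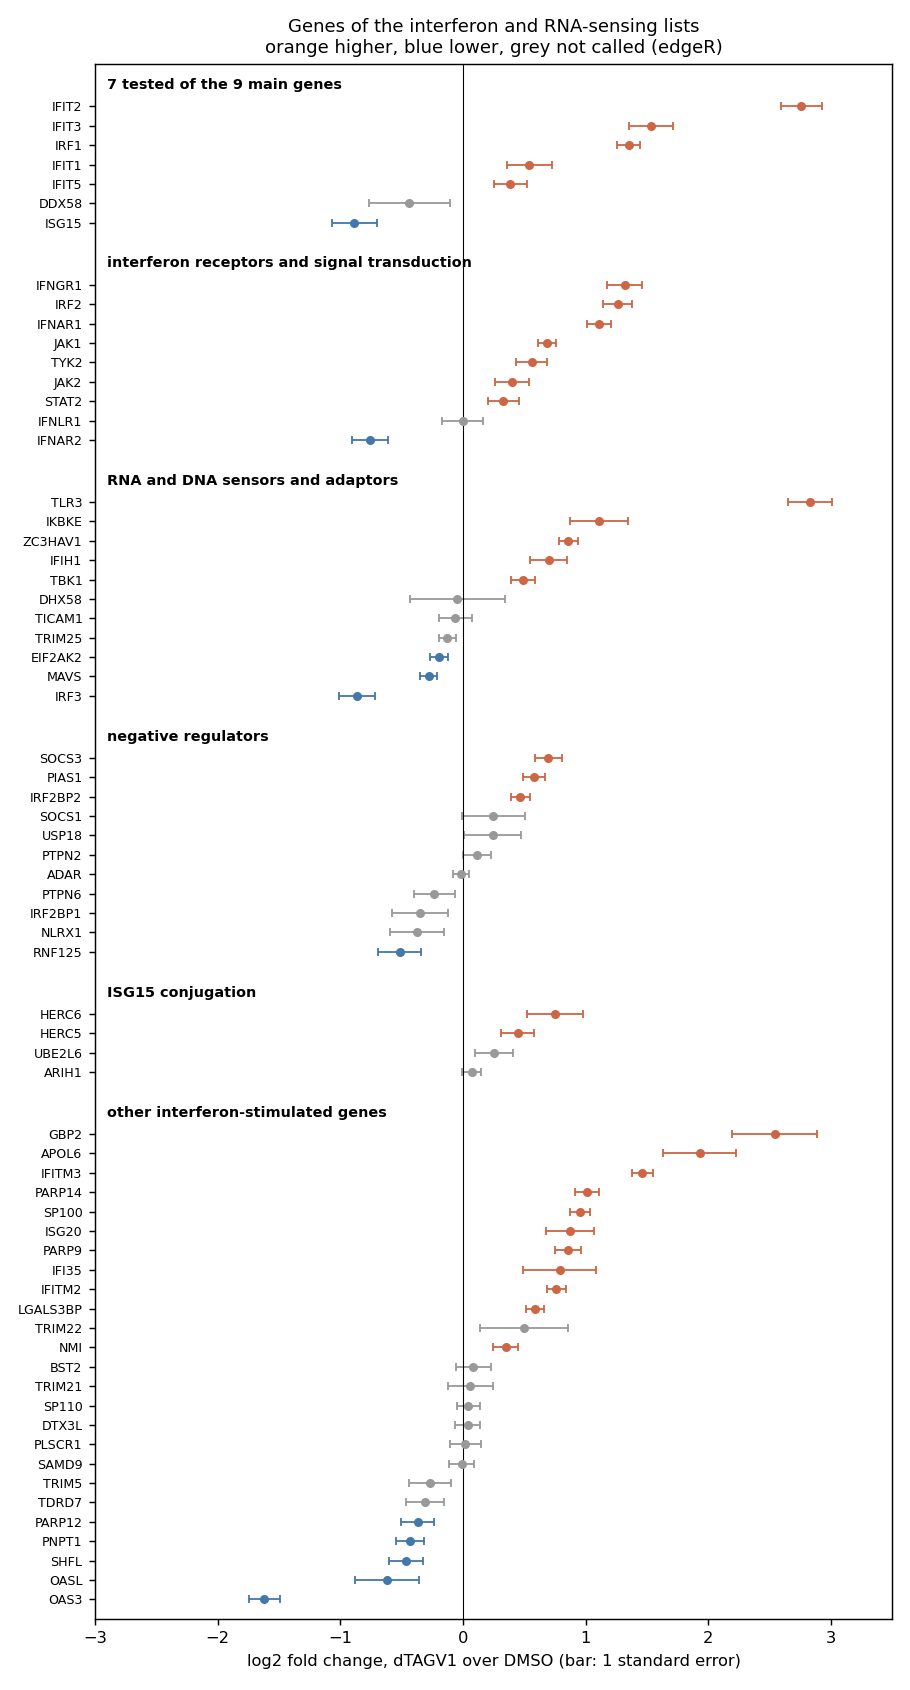
Log2 fold change of dTAGV1 over DMSO (horizontal axis; bars are 1 standard error) for tested genes of each list, coloured by the edgeR call. Increases and decreases occur in most lists, from 2.83 for TLR3 to -1.62 for OAS3; ISG15 at -0.89 is the lowest of the 7 tested main genes and IFIT2 at 2.76 the highest.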

How the data were processed

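For the 8 HCT116 libraries the kit was Lexogen's QuantSeq in its forward version, which primes on poly(A) tails and reads transcript 3′ ends, per the labels' protocols. The authors deposited raw counts of reads per Ensembl gene in the layout of STAR's per-gene output. The submitters' processing notes name FastQC, fastp, STAR, HTSeq and DESeq2 and the build GRCh38, without roles or versions. Neither the annotation release nor the handling of PCR copies is given in the sources used here. Counts on the strand of the gene were used. Totals of reads given to no gene, 56.7% to 62.8% of reads, stayed out of library sizes. Because each transcript gives reads near its 3′ end, no length correction was applied.

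Tests across genes used edgeR 4.0.16 in R 4.3.3: filterByExpr, TMM scaling, robust quasi-likelihood F test, and Benjamini-Hochberg adjustment over 12618 tested genes at 0.05. Standard errors are the absolute log2 fold change divided by the square root of F, and 95% intervals use the normal approximation. CPM is counts for each 1000000 of the TMM-scaled library. Single values were compared by 2-sided exact permutation tests, for which 4 against 4 libraries allow no p below 0.0286. The fit was tested on simulated data. Of 63, 66 and 66 genes given absolute log2 changes of 0.5, 1 and 2, it recovered 61.9%, 90.9% and 100%, with 10 false calls. Far fewer genes were changed in the simulation than were called in the data. Replicate pairs differed by more than sampling noise, with chi-square per degree of freedom of 1.82 to 5.09.

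Symbols came from a table that named 61481 of 78932 identifiers, and coordinates from GENCODE 29 on GRCh38. That release is not the annotation behind the deposited counts, as it holds 57356 of the 78932 identifiers. Overlaps and neighbours given here may therefore differ from those in the authors' annotation. Named genes are all 9 members, and from the lists any called gene and the extremes of each list; 3 genes that this rule names are not reported here. Alternatives were DESeq2 1.42.0, limma-voom (limma 3.58.1), other scalings, filters, strand, a replicate term, non-robust dispersions and leaving out each library. The 9 genes and the lists were chosen with earlier results of these data known.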

Additional observations from a re-analysis of the deposited data

Results flagged for a closer look

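Counts on the opposite strand were not tested alone, and entered tests only within the counts irrespective of strand. Their CPM was higher in every dTAGV1 library than in any DMSO library for 2 of the 9 genes, although raw counts overlapped or tied. For IRF1 they averaged 2.22 CPM with DMSO and 3.79 CPM with dTAGV1, and IRF1-AS1 lies on that strand. For IFIT1 they averaged 0.319 and 1.05 CPM, from 1, 1, 1 and 2 counts against 2, 4, 5 and 4, and LIPA lies on that strand. The part of these neighbours in the values was not tested. No library stood apart from the other 3 of its group for the 8 genes with counts, in 16 groups of values examined, where chance gives about 1 in 20.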

How the results depend on the processing

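Over 780 alternative log2 fold changes of 47 named genes, 742 kept direction and call, 37 lost the call and 1 changed sign. The sign change was that of IFNAR2, at 0.048 with counts irrespective of strand. Requiring a mean of at least 100 counts left 4120 genes called of those tested, 3 of the main genes higher and 5 of the pathway genes lower, as this setting tests fewer genes. With no low-count filter, 2 main genes were lower, because MX1 entered the test. Leaving out each library in turn, 3 to 5 main genes were higher, and the 3 came from leaving out DMSO replicate 4, where IFIT1 and IFIT5 lost their calls. Genes called in those fits numbered 6861 to 7232. Library-size scaling shifted the median log2 fold change by -0.07. Replicate numbers were fitted as a block although the labels do not say that they pair libraries: 7434 genes were called with the replicate block, against 7302 without. Same-numbered libraries had correlated deviations of 0.131, -0.0176, 0.0232 and 0.0340, and 3 of 8 libraries correlated best with their own number. RLE scaling, DESeq2, limma-voom and non-robust dispersions kept the calls of all 7 tested main genes. Depth limits MX1, DDX58 and the interferon ligands.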

Other observations

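Among well-counted genes (means of 100 counts or more), genes with a pattern over the 8 libraries like that of each called gene were found by the root mean square difference of centred log2 CPM. For ISG15 the closest was ENSG00000303010, at 0.111, which has no symbol in the table of names and is not in GENCODE 29, so that its position is not given here. It had 10.04 to 13.3 counts for each ISG15 count in every library and a log2 fold change of -0.82. AKT1 and ADAM15 followed at 0.165 and 0.166. For IFIT2 the closest were MSH4, SYBU and DPP4, at 0.199, 0.223 and 0.243. IFIT3 was most like CCDC62, ZNF600 and NEXN, at 0.141, 0.142 and 0.154. IFIT1 was most like the sensor gene IFIH1, at 0.148, with THAP12 and AKR1A1 both at 0.150. IRF1 was most like LIFR and the pseudogene UBE2D3P2, at 0.0861 and 0.0925, and IFIT5 was most like ALAS1, SNHG17 and TP53BP2, at 0.0308, 0.0723 and 0.0739.

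UGUA, the element bound by cleavage factor Im, was counted as TGTA in the last 100 bases of principal transcripts in GENCODE 29. It occurred 4 times in IFIT1, 3 in IFIT3, 2 in IFIT2 and IRF1, 1 in ISG15 and MX1, and 0 in IFIT5, IRF9 and DDX58. The median of 10640 tested genes was 1, and 55.5% held at least 1. AATAAA, the main poly(A) signal, lay in the last 40 bases of all 9 but DDX58, against 62.0% of tested genes. The poly(A) sites used in these cells were not analysed here.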
